A study of Mus musculus with 9 samples.

Results

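CC chemokines are small secreted proteins with adjacent cysteines near their start that draw leukocytes along a gradient through G protein-coupled receptors. The transcripts of 10 of them were followed in mouse peritoneal macrophages, the phagocytes of the abdominal cavity, which release several on contact with bacteria and hold others without stimulation. The members were taken by symbol: Ccl2, Ccl3, Ccl4, Ccl5, Ccl6, Ccl7, Ccl9, Ccl12, Ccl22 and Ccl24. Each matched a single row of the table, so they make up 10 of its 55335 genes. All 9 libraries come from cells given 1 µg/mL of lipopolysaccharide (LPS), a bacterial product that the receptor TLR4 detects, for 4 h after 1 h in plain medium. The LPS group had nothing added, the LPS+EtOH group was also given 5% ethanol, and the LPS+CPZ group was also given 100 µM of a compound that the labels abbreviate as CPZ. Each group had 3 libraries, and each library pooled 3 RNA samples. Mouse strain, sex and age are not given in the sources used here, and the labels speak of biological replicates without saying whether these were animals or cultures. The p-values therefore measure the spread between pools, which may be partly technical. Cells without LPS were not analysed here, so no value shows what LPS itself did.

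In textbook accounts of LPS stimulation, NF-kB and the kinases below TLR4 switch on the genes of the macrophage inflammatory proteins within hours, whereas the genes of monocyte attractants and Ccl5 also draw on interferon signalling. Ccl6 and Ccl9 are rodent chemokines found in myeloid cells without stimulation. Ccl22 and Ccl24 are linked to alternative activation and to dendritic cells.

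Of the 10 genes, 8 lie in 2 groups on chromosome 11, by the order of protein-coding genes in RefSeq for GRCm38.p6. Ccl2 is followed by Ccl7 there, and Ccl12 lies beyond the next gene, Ccl11. In the other group Ccl5, Ccl9, Ccl6, Ccl3 and Ccl4 follow one another. Ccl22 lies on chromosome 8 and Ccl24 on chromosome 5. In GENCODE M21 no exon of another gene overlapped an exon of a member. Of the stretches of 31 bases in a member's transcripts, 3.75% of those of Ccl9 occurred in some other gene, 1.02% of those of Ccl6, 0.539% of those of Ccl5, 0.0775% of those of Ccl24, and none of the other members'. Those of Ccl9 were spread over 1049 genes, with at most 2.12% in any of them.

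The promoter windows of 5 members matched in the RefSeq table for GRCm38.p6, those of Ccl3, Ccl6, Ccl9, Ccl12 and Ccl22, each from 250 bases before to 50 bases after the start site. Those of Ccl6 (chr11:83593038-83593337, minus strand) and Ccl9 (chr11:83578587-83578886, minus strand) are shown because these neighbours moved in opposite directions with ethanol. The window of Ccl3 (chr11:83649329-83649628, minus strand) is shown because Ccl3 was the chemokine at the highest level in each group. Capitals mark the stretch where Ccl6 and Ccl9 align and, in Ccl3, a match to the C/EBP motif.
Ccl6: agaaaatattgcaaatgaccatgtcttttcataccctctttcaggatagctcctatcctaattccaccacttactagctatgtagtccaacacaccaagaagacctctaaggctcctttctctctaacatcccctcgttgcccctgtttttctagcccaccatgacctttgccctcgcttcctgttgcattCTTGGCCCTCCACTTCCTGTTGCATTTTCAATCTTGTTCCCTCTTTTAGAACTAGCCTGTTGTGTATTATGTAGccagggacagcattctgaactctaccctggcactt
Ccl9: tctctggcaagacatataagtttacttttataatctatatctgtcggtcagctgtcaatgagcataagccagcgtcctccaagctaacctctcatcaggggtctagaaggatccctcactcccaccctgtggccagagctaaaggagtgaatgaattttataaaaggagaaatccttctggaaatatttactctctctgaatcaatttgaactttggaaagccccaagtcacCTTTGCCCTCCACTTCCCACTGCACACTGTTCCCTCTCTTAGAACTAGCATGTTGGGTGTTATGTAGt
Ccl3: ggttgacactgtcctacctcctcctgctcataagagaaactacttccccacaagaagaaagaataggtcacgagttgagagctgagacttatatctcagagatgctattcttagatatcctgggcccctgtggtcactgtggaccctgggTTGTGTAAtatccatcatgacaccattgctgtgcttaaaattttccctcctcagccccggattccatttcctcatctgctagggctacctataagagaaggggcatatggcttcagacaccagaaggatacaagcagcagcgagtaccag
The best local alignment of the Ccl6 and Ccl9 windows spanned 74 columns, of which 58 were identical, 9 mismatched and 7 gaps (78.4% identity). In the other 9 pairs of windows it spanned between 10 and 35 columns. Most of the stretch shared by Ccl6 and Ccl9 lies after the start site in Ccl9 but before it in Ccl6. The windows were searched on both strands for the NF-kB motif and for AP-1, spelled TGANTCA. They were searched likewise for ISRE, the interferon response element (GAAANNGAAA), for the STAT6 motif (TTCNNNNGAA), for GAS, the element bound by other STAT factors (TTCNNNGAA), and for C/EBP (TTNNGNAA). The TATA box was searched as TATAAA. Ccl9 held an NF-kB match whose first base was 35 bases before the start site, an AP-1 match 53 bases before it, TATA matches and 2 C/EBP matches, 1 of which overlaps the NF-kB match. Ccl3 held the C/EBP match 100 bases before the start site, Ccl12 a TATA match 31 bases before it, and Ccl6 and Ccl22 none of these letters. Among all 32851 windows 8.46% held the NF-kB motif, 3.44% ISRE, 7.81% AP-1, 6.95% STAT6, 8.3% GAS, 13.6% TATA and 40.7% C/EBP, so these matches describe the windows and show no binding.

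Levels are given in FPKM, fragments per kilobase of transcript scaled to the library's total, as the authors deposited them. A value written with ± is the mean of a group with its SD (n = 3 libraries), except after a log2 change, where ± gives limma's SE. FPKM is relative to all RNA of a library, and the groups differed there. The size factors of median-ratio scaling, which sets the median gene equal across libraries, were between 1.35 and 1.46 with LPS alone, 0.624 and 0.699 with ethanol, and 1.09 and 1.21 with CPZ. The median log2 change of the 11721 genes tested was -0.82 in LPS+EtOH against LPS and -0.33 in LPS+CPZ against LPS as deposited, and -0.08 in each after that scaling. The 4 adult globin genes took between 11.5 and 29.4% of all FPKM with LPS alone and at most 0.221% elsewhere. The scaled value of a chemokine is therefore given where it alters the call.

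Markers of other cells differed as well. Their counts below are to be read against all genes tested, of which 19.0% were higher and 64.6% lower with ethanol, and 20.7% higher and 48.4% lower with CPZ. Of 10 macrophage markers none was listed at 0 in any group, and their summed level was between 1740 and 2244 FPKM with LPS alone, 2990 and 3268 with ethanol, and 1195 and 1398 with CPZ. Summed B cell markers (8 genes) were between 1475 and 2120 FPKM with LPS alone, 145 and 198 with ethanol, and 1203 and 1421 with CPZ, where Ighm carried most of the sum (1249 ± 218 FPKM with LPS alone and 1160.4 ± 89.2 with CPZ) and 7 of the 8 markers fell, among them Ms4a1 from 54.0 ± 12.8 to 7.65 ± 1.62 FPKM. Among those 7, Fcer2a reached 1 FPKM in no CPZ library. For 6 red blood cell genes the sums were between 34791 and 107458 FPKM with LPS alone, 608 and 747 with ethanol, and 153 and 349 with CPZ. For 7 mast cell genes they were between 50.1 and 91.2, 23.2 and 61.1, and 13.9 and 36.3 FPKM, with Ms4a2 at 0 with ethanol. Markers of mesothelium and fibroblasts (10 genes) summed to between 2.16 and 3.33 FPKM with LPS alone, 2.92 and 4.01 with ethanol, and 2.86 and 3.17 with CPZ, with Pdgfra at 0 with CPZ. Col1a1 alone of them passed the filter, through the treated libraries, and carried most of their sums. It stood at 0.127 ± 0.0270, 1.95 ± 0.184 and 2.14 ± 0.331 FPKM. In such bulk samples fewer cells of a type and less RNA per cell cannot be told apart.

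With ethanol, members of the family moved in both directions, as did all genes tested. In LPS+EtOH against LPS the largest falls in log2 change were those of the monocyte attractants Ccl2 and Ccl7 and the T cell attractant Ccl5. Those of Ccl9, Ccl22 and Ccl24 were smaller, although the mean of Ccl24 was 14.4-fold lower, against 18.2-fold for Ccl2. Ccl6 rose, and Ccl4 rose slightly while Ccl3 did not pass the test. In all, 8 of the 9 tested members changed, 2 higher and 6 lower (limma, adjusted p under 0.05 over all genes tested). Of all genes tested, 83.6% changed, 19.0% higher and 64.6% lower, so neither the number changed nor its split stands far from the background. The members' median log2 change was -2.26, against -0.82 for all genes. After median-ratio scaling 3 members were higher and 6 lower, where 37.8% and 42.1% of all genes were (80.0% in either direction). The members called on the deposited scale were also those whose groups did not overlap, which held for 84.8% of all genes, 19.5% higher and 65.3% lower. Ccl24 passed the filter of 1 FPKM in 3 libraries without any ethanol library above it, and Ccl12 did not pass.

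**Figure D1:**
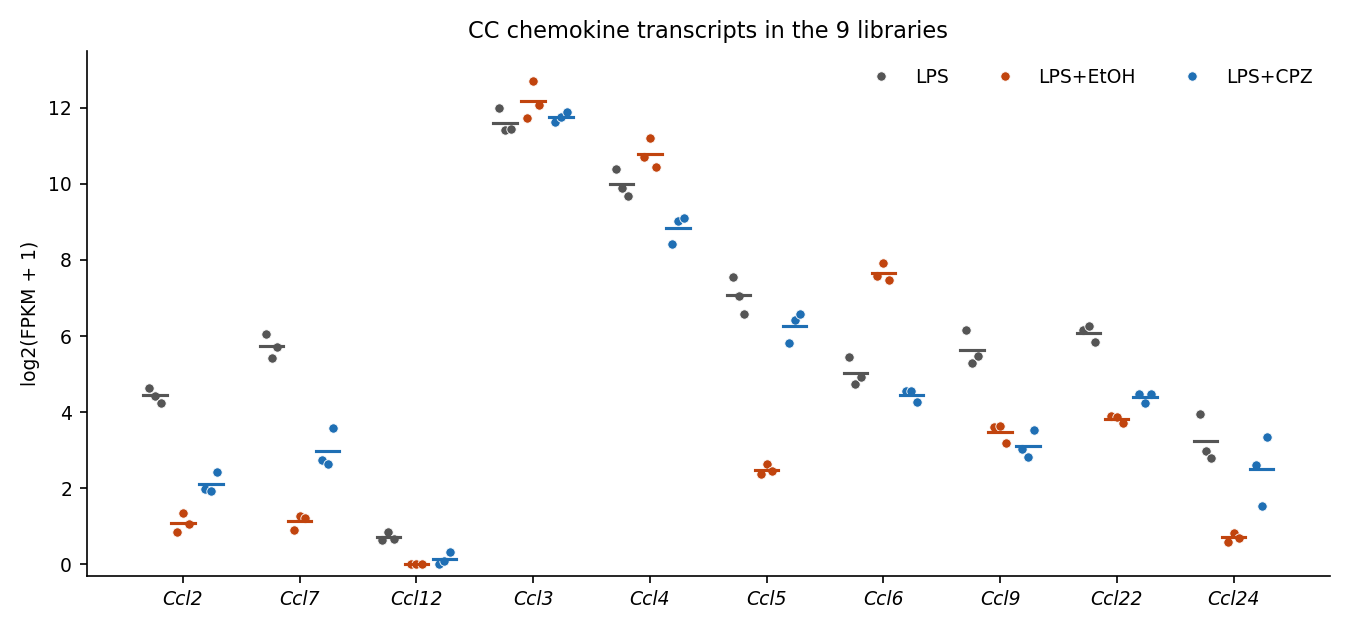
Level of each CC chemokine, as log2(FPKM + 1), in the 3 libraries of LPS (grey), LPS+EtOH (red) and LPS+CPZ (blue); points are libraries and bars are group means. The red points of Ccl2, Ccl7, Ccl5 and Ccl24 lie below all grey and blue points, those of Ccl6 lie above them, and Ccl3 overlaps in all groups.

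Ccl2 encodes MCP-1, the main ligand of the monocyte receptor CCR2. It stood at 23.9, 20.6 and 17.9 FPKM in the libraries with LPS alone, at 0.793, 1.55 and 1.08 with ethanol, and at 2.97, 2.77 and 4.41 with CPZ. No 2 of the 3 groups overlapped, with LPS highest and LPS+EtOH lowest. The mean of LPS+EtOH was 18.2-fold lower than that of LPS (log2 change -3.35 ± 0.18 SE, limma adjusted p = 8.19e-08). LPS+CPZ was 6.15-fold lower than LPS (log2 change -2.33 ± 0.18, limma adjusted p = 2.2e-06).

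Ccl7 encodes MCP-3, a ligand of CCR2 and other receptors, and is the neighbour of Ccl2. It stood at 65.8, 41.8 and 51.3 FPKM with LPS alone, at 0.872, 1.40 and 1.33 with ethanol, and at 5.66, 5.17 and 11.0 with CPZ. Its groups were ordered as those of Ccl2, again without overlap. The mean was 44.0-fold lower with ethanol than with LPS alone (log2 change -4.60 ± 0.25, limma adjusted p = 8.6e-08) and 7.29-fold lower with CPZ (log2 change -2.75 ± 0.25, limma adjusted p = 5.85e-06). Within a library, Ccl7 was 2.55 ± 0.456 times as high as Ccl2 with LPS alone, 1.08 ± 0.164 times with ethanol and 2.09 ± 0.347 times with CPZ. A factor common to a whole library leaves this ratio unchanged, though quantile scaling can alter it. The ratios with ethanol lay below all others, and those of LPS and LPS+CPZ overlapped. With ethanol both genes were near 1 FPKM, which limits the ratio there.

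Ccl12 encodes MCP-5, another ligand of CCR2. It was listed at 0.567, 0.801 and 0.570 FPKM with LPS alone, at 0 in the 3 LPS+EtOH libraries, and at 0, 0.0590 and 0.257 with CPZ. These levels are below the filter, and a listed 0 may be a failed estimate, so no fold is given. The LPS libraries lay above all others, and Ccl12 was not tested.

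Ccl3 encodes MIP-1 alpha, a ligand of CCR1 that attracts monocytes and other leukocytes. It stood at 4064, 2726 and 2766 FPKM with LPS alone, at 3423, 6679 and 4305 with ethanol, and at 3135, 3436 and 3809 with CPZ. All 3 groups overlapped. The log2 change was 0.56 in LPS+EtOH against LPS (95% interval -0.01 to 1.14, limma adjusted p = 0.0646) and 0.14 with CPZ (95% interval -0.43 to 0.71, limma adjusted p = 0.647). The first passed the test after median-ratio scaling (1.66), with eBayes without trend, without LPS replicate 1 (0.75) and without LPS+EtOH replicate 1 (0.78). The second took the opposite sign, without passing, when globin genes were left out (-0.23).

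Ccl4 encodes MIP-1 beta, which attracts monocytes and T cells, and is the neighbour of Ccl3. It stood at 1352, 943 and 825 FPKM with LPS alone, at 1656, 2354 and 1381 with ethanol, and at 342, 518 and 548 with CPZ. LPS+EtOH lay above LPS and LPS+CPZ below it, each without overlap. The mean was 1.73-fold higher with ethanol (log2 change 0.78 ± 0.26, limma adjusted p = 0.0168) and 2.22-fold lower with CPZ (log2 change -1.14 ± 0.26, limma adjusted p = 0.0028). The rise with ethanol was lost under quantile scaling (0.36), with globin genes left out (0.36), without the filter, and without LPS replicate 2 (0.73), LPS replicate 3 (0.63) or LPS+EtOH replicate 2 (0.57), and was 1.88 after median-ratio scaling. Within a library Ccl4 was 0.326 ± 0.0246 times as high as Ccl3 with LPS alone, 0.386 ± 0.0864 times with ethanol and 0.135 ± 0.0223 times with CPZ. On this measure LPS and LPS+EtOH overlapped and LPS+CPZ lay below both.

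Ccl5 encodes RANTES, which attracts T cells, monocytes and eosinophils and is also transcribed in activated T and NK cells. It stood at 188, 131 and 95.4 FPKM with LPS alone, at 4.14, 5.17 and 4.44 with ethanol, and at 55.3, 84.0 and 94.4 with CPZ. The ethanol libraries were lower than all others, while the highest LPS+CPZ library was just under the lowest LPS library. The mean was 30.2-fold lower with ethanol (log2 change -4.59 ± 0.25, limma adjusted p = 8.78e-08) and 1.77-fold lower with CPZ (log2 change -0.80 ± 0.25, limma adjusted p = 0.015). The fall with CPZ was lost after median-ratio scaling (-0.48), without the filter, without LPS replicate 1 (-0.55) and without LPS+CPZ replicate 1 (-0.57). Relative to Ccl4 in the same library, Ccl5 stood at 0.131 ± 0.0136 with LPS alone, 0.00264 ± 0.000525 with ethanol and 0.165 ± 0.00604 with CPZ. These ratios did not overlap between groups, and that of LPS+CPZ was the highest.

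Markers of T and NK cells moved beside Ccl5. Of the 8 that passed the filter, 7 reached 1 FPKM in no ethanol library and 2 in no CPZ library, so they passed through the groups where they are high and no count of falls is given. The sum of all 10 markers was between 47.1 and 59.9 FPKM with LPS alone, 0.681 and 1.63 with ethanol, and 11.0 and 20.9 with CPZ, with Klrb1c at 0 with ethanol. Their part in the Ccl5 result was not tested.

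Ccl6 encodes a chemokine of resting myeloid cells that acts on CCR1. It stood at 42.8, 25.7 and 29.1 FPKM with LPS alone, at 189, 240 and 175 with ethanol, and at 22.7, 22.6 and 18.1 with CPZ. Every ethanol library was above every other, and the LPS+CPZ libraries were below all LPS libraries. The mean was 6.19-fold higher with ethanol (log2 change 2.61 ± 0.20, limma adjusted p = 4.95e-07) and 1.54-fold lower with CPZ (log2 change -0.58 ± 0.20, limma adjusted p = 0.0223). The fall with CPZ was lost after median-ratio (-0.26) and quantile scaling (-0.49), without the filter, without LPS replicate 1 (-0.37) and without LPS+CPZ replicate 3 (-0.47).

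The summed level of neutrophil markers was, like that of Ccl6, highest in the ethanol libraries. Of 10 tested, 10 rose with ethanol, while 3 rose (Ly6g, Retnlg and S100a8) and 3 fell (Csf3r, Cxcr2 and Ltf) with CPZ, of which Csf3r did not pass after median-ratio scaling. The sum of the 12 markers was between 3857 and 5428 FPKM with LPS alone, 43753 and 48329 with ethanol, and 6384 and 6890 with CPZ, with Elane at 0 with LPS alone. S100a8 and S100a9 carried most of it (9141 ± 648 and 33420 ± 2070 FPKM with ethanol). Ly6g was highest with CPZ instead, at 16.9 ± 4.79, 156 ± 12.3 and 274 ± 31.1 FPKM. In LPS+CPZ against LPS+EtOH, Ly6g was higher and 9 markers lower, where 61.4% and 15.2% of all genes were. The call of Ly6g was lost after median-ratio scaling. The part of neutrophils in the rise of Ccl6 was not tested.

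Ccl9 encodes a further CCR1 ligand of myeloid cells and is the neighbour of Ccl6, with whose promoter window it aligns over the stretch shown above. It stood at 70.7, 38.4 and 43.2 FPKM with LPS alone, at 11.3, 11.5 and 8.19 with ethanol, and at 7.15, 6.01 and 10.5 with CPZ. Both treated groups were below LPS and overlapped with each other. The mean was 4.92-fold lower with ethanol (log2 change -2.16 ± 0.25, limma adjusted p = 1.09e-05) and 6.43-fold lower with CPZ (log2 change -2.52 ± 0.25, limma adjusted p = 9.9e-06). After median-ratio scaling these changes were -1.12 and -2.19. Within a library Ccl6 was 0.649 ± 0.0385 times as high as Ccl9 with LPS alone, 19.7 ± 2.53 times with ethanol and 2.88 ± 1.05 times with CPZ, with no overlap between groups.

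**Figure D2:**
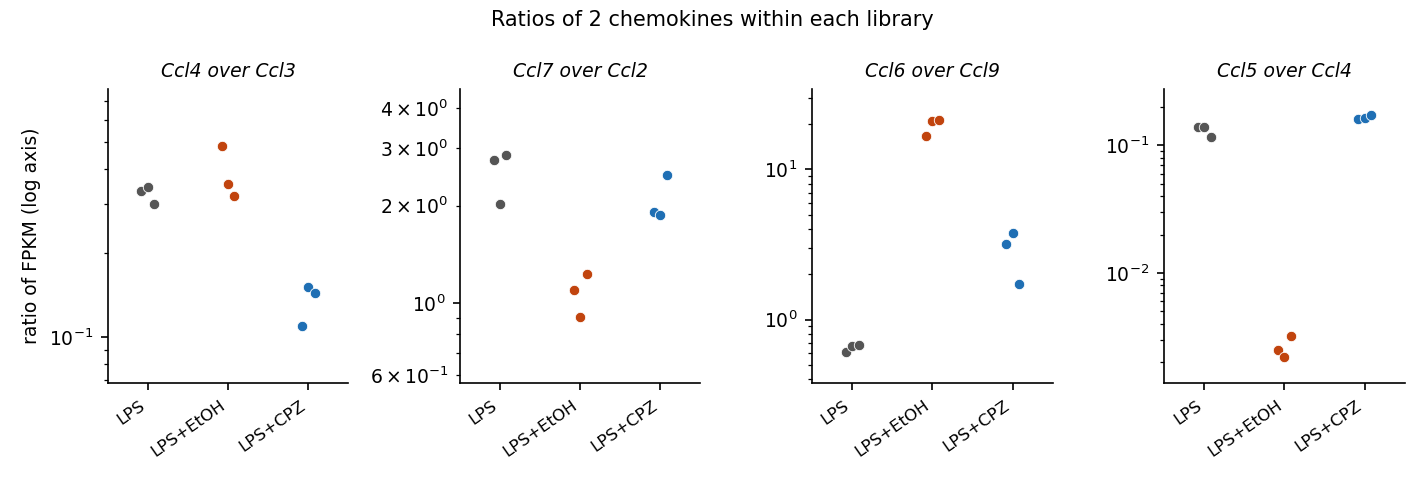
Ratio of the FPKM of 2 chemokines within each library (log axes; each point is 1 of 3 libraries per group). Ccl4 over Ccl3 is lowest in LPS+CPZ, Ccl7 over Ccl2 is lowest in LPS+EtOH, Ccl6 over Ccl9 goes from under 1 in LPS to between 16.8 and 21.4 in LPS+EtOH, and Ccl5 over Ccl4 is lowest in LPS+EtOH.

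Ccl22 encodes a ligand of CCR4 that attracts regulatory and helper T cells, and dendritic cells are a known source. It stood at 70.1, 76.5 and 56.1 FPKM with LPS alone, at 14.0, 13.7 and 12 with ethanol, and at 21.1, 17.7 and 21.4 with CPZ. The 3 groups did not overlap. The mean was 5.11-fold lower with ethanol (log2 change -2.26 ± 0.14, limma adjusted p = 1.64e-07) and 3.37-fold lower with CPZ (log2 change -1.70 ± 0.14, limma adjusted p = 3.08e-06). After median-ratio scaling these changes were -1.21 and -1.37.

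Markers of small peritoneal macrophages, monocytes and dendritic cells moved beside Ccl22. Of 8 tested, 6 fell and Ly6c2 rose with ethanol, and 7 fell and Itgax rose with CPZ. The falls include Zbtb46, which reached 1 FPKM in the LPS libraries alone and passed the filter through them. After median-ratio scaling Itgax also rose with ethanol. The sum of the 10 markers was between 1560 and 2320 FPKM with LPS alone, 239 and 302 with ethanol, and 588 and 863 with CPZ, and none was at 0 throughout a group. Irf4, a transcription factor gene of dendritic cells and alternative activation in that list, fell from 251 ± 81.4 to 8.39 ± 2.28 FPKM with ethanol and to 9.19 ± 1.06 with CPZ. The part of these cells in the result was not tested.

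Ccl24 encodes eotaxin-2, which attracts eosinophils through CCR3. It stood at 14.5, 6.90 and 5.88 FPKM with LPS alone, at 0.50, 0.779 and 0.618 with ethanol, and at 5.13, 1.91 and 9.23 with CPZ. Ethanol libraries were below all others, whereas LPS and LPS+CPZ overlapped. The mean was 14.4-fold lower with ethanol (log2 change -2.54 ± 0.41, limma adjusted p = 0.000163). For LPS+CPZ the log2 change was -0.74 (95% interval -1.65 to 0.18, limma adjusted p = 0.134), and it passed the test without LPS+CPZ replicate 3 (-1.16) and with globin genes left out (-1.06). Of 8 tested markers of large peritoneal macrophages, 6 fell and Cd93 and Lrg1 rose with ethanol, and 7 fell and Cd93 rose with CPZ, where 3 of the 8 reached 1 FPKM in no ethanol library and 2 in no CPZ library. Their sum over 10 genes was between 123 and 161 FPKM with LPS alone, 61.1 and 65.4 with ethanol, and 32.3 and 45.7 with CPZ. None was at 0 throughout a group. Lrg1 carried most of the sum with ethanol, at 51.8 ± 1.66 FPKM, against 12.8 ± 4.91 with LPS alone and 4.26 ± 0.848 with CPZ. Prg4 averaged 82.3 FPKM with LPS alone, 1.105 with ethanol and 22.1 with CPZ. In LPS+CPZ against LPS+EtOH, Icam2, Prg4 and Timd4 were higher and F5 and Lrg1 lower, so the order of the sums did not hold for each marker. Of 3 eosinophil markers that passed the filter, 2 reached 1 FPKM in no ethanol library, and the sum of 7 was between 18.6 and 30.7, 1.28 and 2.61, and 6.58 and 8.90 FPKM, with Epx at 0 in all libraries and Ear1 at 0 with CPZ. The part of either cell type was not tested.

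**Figure D3:**
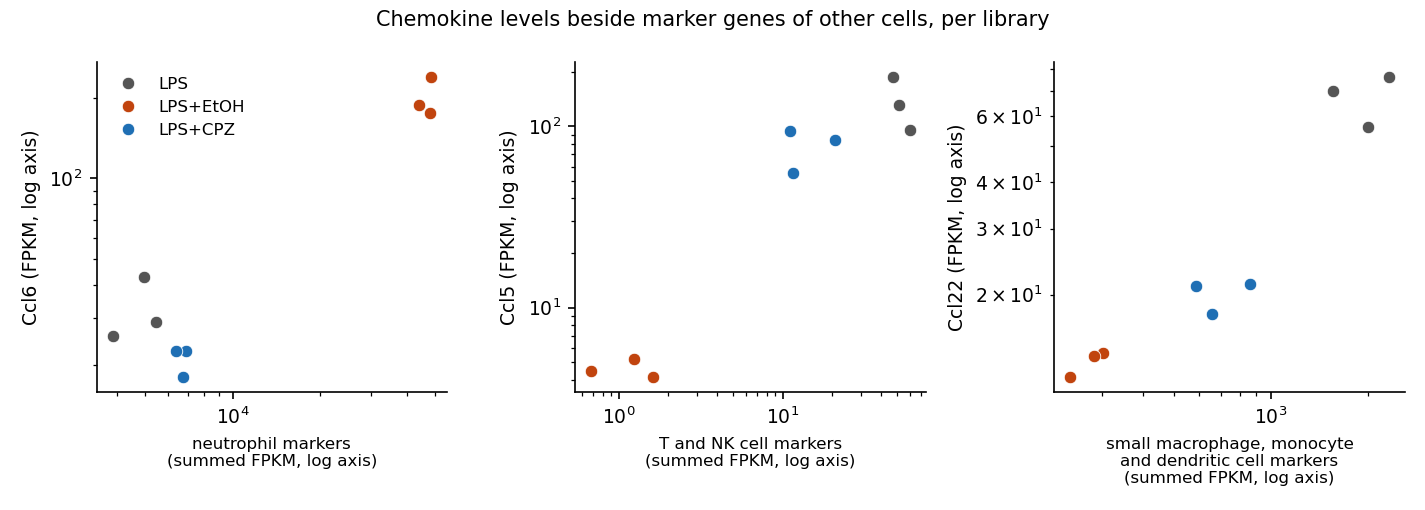
Chemokine level against the summed FPKM of cell type markers in each of the 9 libraries (log axes): Ccl6 with neutrophil markers, Ccl5 with T and NK cell markers, and Ccl22 with markers of small peritoneal macrophages, monocytes and dendritic cells. The LPS+EtOH libraries (red) are highest on both axes for Ccl6 and lowest on both for Ccl5 and Ccl22. The LPS libraries are grey and the LPS+CPZ libraries blue. For Ccl6 the blue points are above the grey ones in marker sum but below them in chemokine level. For Ccl5 and Ccl22 the blue points are below the grey ones on both axes.

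With CPZ no member rose. In LPS+CPZ against LPS, 7 of the 9 tested members were lower, namely Ccl2, Ccl7, Ccl4, Ccl5, Ccl6, Ccl9 and Ccl22, while Ccl3 and Ccl24 did not pass the test. Of all genes tested, 69.2% changed, 20.7% higher and 48.4% lower. The members' median log2 change was -1.14, against -0.33 for all genes. After median-ratio scaling 5 members were lower, and none higher, where 34.1% and 27.5% of all genes were (61.6% in either direction), and Ccl5 and Ccl6 were the calls lost. The 7 members did not overlap between the groups, which held for 72.9% of all genes, 22.3% higher and 50.7% lower. The comparison shares its LPS libraries with that of ethanol.

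The difference between the treatments was tested directly in LPS+CPZ against LPS+EtOH. Ccl2, Ccl5, Ccl7, Ccl22 and Ccl24 were higher with CPZ than with ethanol, and Ccl4 and Ccl6 were lower. Of 9 members, 5 were higher and 2 lower, where 76.6% of all genes changed, 61.4% higher and 15.2% lower. After median-ratio scaling 4 were higher and 4 lower, where 35.6% and 31.4% of all genes were (67.0% in either direction). The 7 members called on the deposited scale did not overlap between the groups, which held for 79.0% of all genes, 62.9% higher and 16.0% lower.

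Ccl5 was 17.0-fold higher with CPZ than with ethanol (log2 change 3.79 ± 0.25, limma adjusted p = 9.17e-07). Ccl7 was 6.04-fold higher (log2 change 1.85 ± 0.25, limma adjusted p = 7.09e-05), Ccl2 2.96-fold higher (log2 change 1.03 ± 0.18, limma adjusted p = 0.000418), and Ccl24 8.58-fold higher (log2 change 1.80 ± 0.41, limma adjusted p = 0.00235). These 4 kept their call after median-ratio scaling (log2 changes of 3.11, 1.34, 0.55 and 1.40), and that of Ccl2 was lost under quantile scaling (0.46). Ccl6 was 9.54-fold lower with CPZ (log2 change -3.19 ± 0.20, limma adjusted p = 6.51e-07) and Ccl4 3.83-fold lower (log2 change -1.93 ± 0.26, limma adjusted p = 7.64e-05). Ccl22 was 1.52-fold higher with CPZ (log2 change 0.56 ± 0.14, limma adjusted p = 0.00365), which is close to the median shift of all genes (0.55). It had the opposite sign after median-ratio scaling (-0.17) and was lost under quantile scaling (0.29).

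For Ccl3 and Ccl9 the 2 treatments did not differ beyond the spread of the libraries. The log2 change was -0.42 for Ccl3 (95% interval -0.99 to 0.15, limma adjusted p = 0.159) and -0.37 for Ccl9 (95% interval -0.92 to 0.18, limma adjusted p = 0.195). Both passed the test as lower with CPZ after median-ratio scaling (-1.20 and -1.08), and Ccl9 also under quantile scaling (-0.74). Ccl12 overlapped between the 2 groups.

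**Figure D4:**
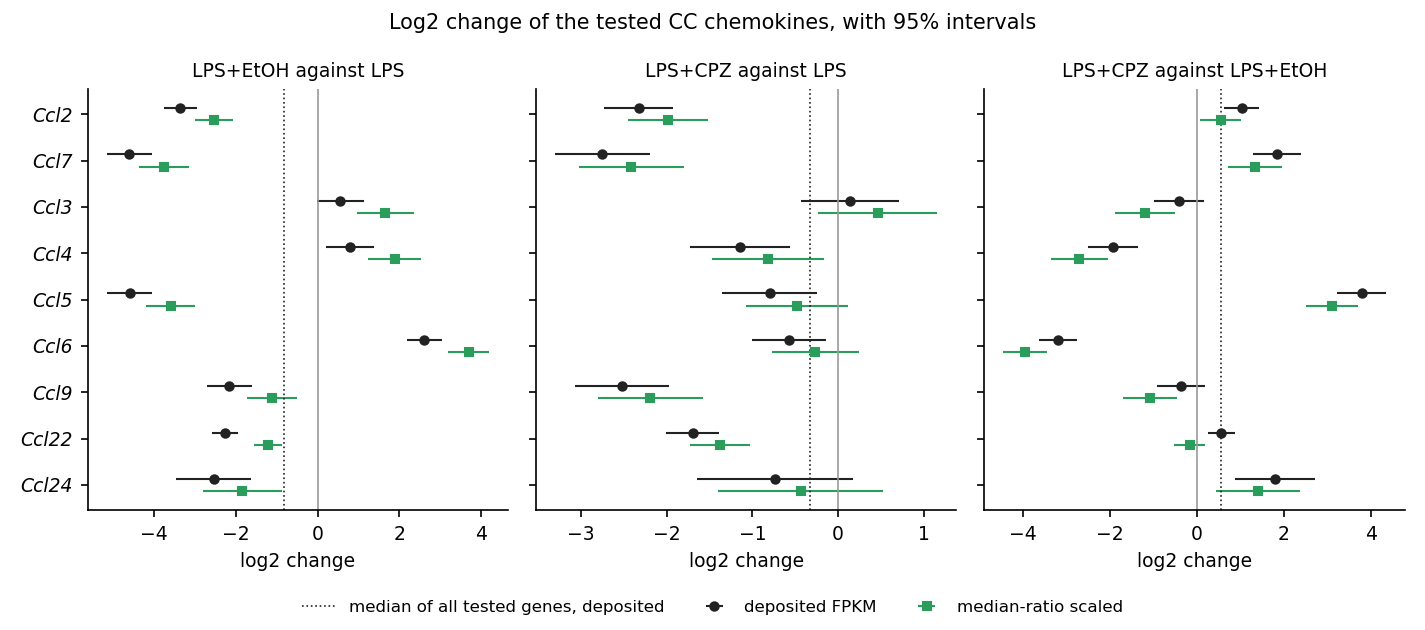
Log2 change of the 9 tested CC chemokines with 95% intervals in the 3 comparisons, from deposited FPKM (black circles) and after median-ratio scaling (green squares); the dotted line is the median of all tested genes on the deposited scale. With ethanol Ccl2, Ccl7 and Ccl5 lie far left of that line and Ccl6 far right of 0, and with CPZ all members but Ccl3 lie at or left of 0.

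Ccl3 was highest and Ccl4 second in each group, and together they made up 91.9 ± 0.411% of the summed FPKM of the 10 with LPS alone, 96.5 ± 0.606% with ethanol and 96.5 ± 0.212% with CPZ. The sum itself was 5893, 4011 and 3890 FPKM in the libraries with LPS alone, 5298, 9307 and 5888 with ethanol, and 3598, 4094 and 4526 with CPZ, where the LPS libraries overlapped with both treated groups and every ethanol library was above every CPZ library. The order below the leading pair differed. In LPS it was Ccl5, Ccl22, Ccl7, Ccl9, Ccl6, Ccl2, Ccl24 and Ccl12, and from Ccl22 to Ccl6 each overlapped with the next. In LPS+EtOH it was Ccl6, Ccl22, Ccl9, Ccl5, Ccl7, Ccl2, Ccl24 and Ccl12, and only Ccl7 and Ccl2 overlapped. In LPS+CPZ it was Ccl5, Ccl6, Ccl22, Ccl9, Ccl7, Ccl24, Ccl2 and Ccl12, with overlap between Ccl6 and Ccl22 and between each neighbour from Ccl9 to Ccl2. Without LPS replicate 1 the overlaps with LPS alone went from 3 to 1, and without LPS+CPZ replicate 3 those with CPZ went from 4 to 1. After median-ratio or quantile scaling those with ethanol went from 1 to 3.

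The other 12 CC chemokine ligands listed were all below the filter. Among them Ccl17, another ligand of CCR4 and named here after its values were seen, was at 0.801 ± 0.307 FPKM with LPS alone, 1.15 ± 0.384 with ethanol and 0.247 ± 0.428 with CPZ. Ccl11, Ccl19, Ccl21b and Ccl26 were listed at 0 in all 9 libraries.

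Among CC chemokine receptor genes, Ccr1 and Ccrl2 rose and Ccr7 fell in both comparisons with LPS. Ccr3 and Ccr6 reached 1 FPKM in the LPS libraries alone, which is how they passed the filter, so their values are given as a description. Ccr7, which guides cells to lymph nodes, fell from 132 ± 31.5 FPKM with LPS alone to 12.4 ± 2.54 with ethanol and to 71.5 ± 24.1 with CPZ, while Ccr3 stood at 2.93 ± 0.377, 0.179 ± 0.0553 and 0.386 ± 0.212 FPKM and Ccr6 at 4.29 ± 1.30, 0.154 ± 0.0764 and 0.356 ± 0.256 FPKM. Ccrl2, which binds the attractant chemerin without signalling, rose from 132 ± 11.6 to 409 ± 84.1 and 316 ± 10.9 FPKM. Ccr1, named after its values were seen, is a receptor of Ccl3, Ccl5, Ccl6 and Ccl9 and rose from 38.2 ± 11.2 to 185 ± 31 and 107 ± 15.4 FPKM. Ccr2, the receptor of Ccl2, Ccl7 and Ccl12, was below the filter at 1.12 ± 0.408, 0.0402 ± 0.00705 and 1.12 ± 0.559 FPKM. The directions of Ccr1, Ccrl2 and Ccr7 were the same after median-ratio scaling.

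In the list of genes through which LPS, IL-4 and interferon induce these chemokines, 7 of 22 tested rose and 11 fell with ethanol. Among these falls Ticam2 had no ethanol library at 1 FPKM. With CPZ, 1 rose and 15 fell. In this and the lists that follow, the shares over all genes are 19.0% higher and 64.6% lower with ethanol (37.8% and 42.1% after median-ratio scaling), and 20.7% and 48.4% with CPZ (27.5% and 34.1%). After median-ratio scaling 12 rose and 4 fell, and 2 rose and 13 fell. Ticam2, which encodes the adaptor TRAM of the TLR4 interferon branch, fell from 9.47 ± 1.24 to 0.825 ± 0.137 and 1.61 ± 0.0955 FPKM. Rel, which encodes c-Rel of the NF-kB family, went down from 214 ± 14.2 to 116 ± 15.3 FPKM with ethanol, where median-ratio scaling turned its sign (0.20), and to 27.6 ± 5.10 with CPZ. Ly96, which encodes the TLR4 partner MD-2, rose from 9.17 ± 0.613 to 33.2 ± 2.5 and 38.2 ± 5.45 FPKM.

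Of 15 genes of mRNA decay and feedback, 6 rose and 6 fell with ethanol, and 2 rose and 10 fell with CPZ. After median-ratio scaling 10 rose and 4 fell, and 2 rose and 5 fell. The RNA-binding protein genes Khsrp (19.1 ± 1.44 to 4.93 ± 0.529 FPKM) and Elavl1 (8.003 ± 0.556 to 1.99 ± 0.218 FPKM) fell with ethanol. In LPS+CPZ they fell to 12.9 ± 0.599 and 5.48 ± 0.375 FPKM, calls that median-ratio scaling removed. Zfp36l2, which encodes an mRNA decay factor, fell from 21.8 ± 1.46 to 4.10 ± 0.706 FPKM with ethanol and stood at 21.8 ± 3.51 with CPZ. Atf3, a transcriptional repressor gene of the LPS response, rose from 113 ± 9.78 to 349 ± 33.0 FPKM with CPZ and stood at 129 ± 9.56 with ethanol, where it passed the test after median-ratio scaling.

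Of 19 tested genes of chemokine receptor signalling, 7 rose and 10 fell with ethanol (3 of them, Arrb1, Grk3 and Grk6, with no ethanol library at 1 FPKM), and 3 rose and 8 fell with CPZ. After median-ratio scaling 9 rose and 6 fell, and 3 rose and 4 fell. Grk6, which encodes a kinase that desensitizes chemokine receptors, fell from 11.4 ± 1.37 to 0.868 ± 0.114 and 2.84 ± 0.193 FPKM, and Grk3 of the same family from 4.08 ± 1.47 to 0.351 ± 0.0216 and 0.988 ± 0.0939. Dock2, a gene of leukocyte migration, fell from 34.1 ± 3.16 to 10.2 ± 0.578 and 25.2 ± 2.94 FPKM, the latter call being lost after median-ratio scaling. Its partner Elmo1 rose from 9.92 ± 1.33 to 24.0 ± 1.99 FPKM with CPZ and fell to 4.81 ± 0.278 with ethanol, where median-ratio scaling turned its sign (0.05).

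Of 11 tested genes of chemokine cleavage and matrix binding, Mmp8 rose and 8 fell with ethanol (5 of them, Dpp4, Ext1, Mmp12, Mmp14 and Sdc1, with no ethanol library at 1 FPKM), and Adam17 rose and 6 fell with CPZ. After median-ratio scaling 3 rose and 7 fell, and 1 rose and 5 fell. Sdc4, which encodes a surface proteoglycan, fell from 77.7 ± 28.2 to 2.33 ± 0.326 and 13.9 ± 3.43 FPKM. Dpp4, whose product trims the start of chemokines such as Ccl22, fell from 3.41 ± 0.675 to 0.104 ± 0.0695 and 1.25 ± 0.167 FPKM, and Mmp14 from 16.1 ± 8.65 to 0.426 ± 0.0998 and 3.77 ± 0.470. Mmp8, a neutrophil collagenase gene, rose from 12.2 ± 13.2 to 95.6 ± 5.20 FPKM with ethanol and stood at 12.03 ± 3.41 with CPZ.

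The genes whose pattern over the 9 libraries lay closest to each tested member were found as those with the smallest root mean square difference between centred log2(FPKM + 1) profiles, among 10011 genes. For Ccl2 they were Fabp7 (0.171), which encodes a fatty acid-binding protein, and the neutrophil chemokine gene Cxcl1 (0.201), which stood at 228 ± 70.8, 19.4 ± 6.23 and 46.5 ± 16.6 FPKM. For Ccl7 they were the scavenger receptor gene Msr1 (0.298) and Sdc4 (0.301). Ccl3 was closest to Pafah1b1 (0.214) and Tagln (0.229), and Ccl4 to Csf3 (0.275), the gene of the growth factor G-CSF, and B9d2 (0.283). Ccl5 was closest to Ms4a6d (0.241) and Scpep1 (0.278). Ccl6 was closest to Asprv1 (0.198) and the protease inhibitor gene Stfa2l1 (0.226), which stood at 83.4 ± 21.9, 476 ± 13.2 and 54.0 ± 9.35 FPKM. Ccl9 was closest to Cybb (0.227), which encodes the catalytic subunit of the phagocyte NADPH oxidase, and to the cytokine gene Lif (0.245). Ccl22 was closest to Ehd4 (0.136) and Zfp318 (0.139), and Ccl24 to Arg1 (0.284) and Anpep (0.305). No member was among the closest pair of genes of another.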

How the data were processed

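The 9 libraries were strand-specific TruSeq libraries sequenced on a NovaSeq instrument, per the labels' protocols, and the authors deposited FPKM per gene. As tools, FastQC 0.11.2, StringTie and STAR are listed in the submitters' processing notes. These name the human build hg38, whereas 55154 of the 55335 gene IDs are mouse IDs of GENCODE M21, so only the RefSeq windows carry coordinates. FPKM values are not counts. Only between 25.9 and 27.4% of low values of single-transcript genes were within 2% of some whole number of the commonest steps, so fragments were not recovered, and the depths that this step gives, from 27062969 to 39306054 fragments, are rough. No counting error is given.

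A gene was tested if 3 or more libraries reached 1 FPKM (11721 genes, among them 9 of the 10 members). Values were taken as log2(FPKM + 1), a scale that understates changes of weakly expressed genes. They were compared with limma 3.58.1 in R 4.3.3 (eBayes with trend, group alone as term over the 9 libraries, two-sided, 6 residual degrees of freedom before moderation), with Benjamini-Hochberg adjustment over all genes tested and a threshold of 0.05. Intervals are limma's 95% intervals. Fold values are ratios of mean FPKM. The fit was tested on simulated data with independent noise and few changed genes. These libraries differ from that setting, so the simulation cannot tell how the calls bear the shifts between groups. Ratios and shares within a library were added after the data were seen and are descriptions.

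The members, the gene lists and the cell type marker lists were chosen with earlier results of these data known. All members are named. From each pathway list the text names up to 3 genes with the smallest adjusted p in a comparison with LPS and 1 of the other direction, and others are said to be chosen after their values were seen. Of the receptor list, 1 item is not reported here. Marker genes are named where they moved against their list, carried much of its sum or were listed at 0. Alternatives were other pseudocounts (0.1 and 5), filters (any value above 0 and 5 FPKM), TPM, median-ratio and quantile scaling, globin genes left out, eBayes without trend or robust, a replicate block, a fit of only the compared groups, and leaving out each library. Tables were made in Python 3.11.15 with pandas 2.3.3 and numpy 2.4.6, and plots with matplotlib 3.10.9.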

Additional observations from a re-analysis of the deposited data

How the results depend on the processing

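The number of chemokines that passed the test stayed within 1.5 times its reported value in each comparison under every alternative tried. With a filter of 5 FPKM, under which 6419 genes were tested, 5345 genes in place of 9796 were called in LPS+EtOH against LPS, 4741 in place of 8106 in LPS+CPZ against LPS, and 4993 in place of 8980 in LPS+CPZ against LPS+EtOH. Fewer genes tested accounts for fewer calls. Among the log2 changes of single chemokines, 2 took the opposite sign: that of Ccl3 in LPS+CPZ against LPS with globin genes left out (-0.23) and that of Ccl22 in LPS+CPZ against LPS+EtOH after median-ratio scaling (-0.17). The other lost or gained calls stand beside their values above, and their cause was not tested. Under median-ratio scaling, quantile scaling or with globin genes left out, chemokine levels moved by more than 1 SD in 11 cases with LPS alone, 16 with ethanol and 2 with CPZ, while 59, 54 and 68 recomputed levels over all settings did not. The share of Ccl3 and Ccl4 with LPS alone moved under quantile scaling.

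The groups share the replicate numbers 1 to 3, and the deviations of same-numbered libraries correlated at between -0.006 and 0.26. Of the 9 libraries, 7 correlated best with one of their own number. The numbers may therefore pair the libraries, which the main fit leaves out. In a fit with a replicate block, 9871, 8156 and 9086 genes were called in the 3 comparisons, in the order above, and no chemokine gained or lost its call. The 3 libraries per group and the unknown fragment counts limit what can be said of Ccl12 and of the ethanol levels of Ccl2, Ccl7 and Ccl24, which are near 1 FPKM or below.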
